A study of Mus musculus with 8 samples.

Results

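The genes described here are 48 that encode the machinery of DNA replication, from the proteins that mark origins to those that join the new strands and supply nucleotides. They were chosen by gene name and not by any measured value, with older array names such as Cdc45l and Orc1l counted. On the array they were covered by 60 probes, out of 22002 named genes in all. RNA was measured on 1-colour Agilent arrays, 1 array per sample, in satellite cells, the stem cells of skeletal muscle. The basal group held 4 samples from uninjured muscle and the injured group 4 samples taken 3 days after injection of cardiotoxin, which kills muscle fibres and sets off their regrowth. All 8 samples were labelled as male C57BL/6 mice aged 3 months, and all were sorted as cells positive for integrin a7 and negative for CD31, CD45, CD11b and Sca1. The labels name no transgene or deletion, and the names of all 8 samples in the authors' deposited values begin with WT, read here as wild type. The labels call the samples biological replicates without saying whether animals were pooled, so p-values measure the spread between these samples.

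Of the non-control spots, 50.1% to 56.7% per array were well above background and none was saturated. All basal arrays lay on 1 slide with 1 scan date and all injured arrays on another, so injury and slide cannot be told apart. Sex-linked RNA went against the label male in several samples. Xist, the RNA of the inactive X chromosome, was at 6.37, 6.55 and 6.57 on injured 2, 3 and 4, and the Y-linked genes Ddx3y, Eif2s3y, Kdm5d and Uty were not above background there. Xist was also above background on injured 1 (1.72) and on basal 1, 2 and 3 (3.85, 2.15 and -1.12), where at least 1 of the Y-linked genes was above it too, and basal 4 had Xist at -4.97. Ddx3y was above background on all 4 basal arrays and, of the injured arrays, on injured 1 alone. Sex-linked signal thus ran largely with group, and for injured 2, 3 and 4 it cannot be told apart from injury. A fit with injured 1 as the only injured array is given below. Of 15 satellite cell markers, 14 were above background on at least 3 basal arrays and 12 on at least 3 injured arrays, and Myf5 was above it on no array. The satellite cell factor Pax7 fell by 2.95 ± 0.21 log2 units (SE with 4 arrays per group; limma, adjusted p = 1.78e-05). Of the 14 satellite cell markers tested, 9 fell and 4 rose, where 24.8% of all genes tested fell and 35.3% rose. The 4 that rose were Itga7 (1.13), which encodes integrin a7, Sdc3 (0.54), Myod1 (0.77) and Met (2.47). Chrdl2 and Calcr were above background on all 4 basal arrays and on 0 injured arrays. Mki67, a marker of cycling cells, rose by 2.65 ± 0.42 (adjusted p = 0.000824).

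DNA replication starts at origins bound by the origin recognition complex, on which Cdc6 and Cdt1 load the ring of Mcm2 to Mcm7, the core of the replicative helicase. Cdc45 and the GINS complex then join the ring to make it active, primase and polymerase alpha start each strand, and polymerases delta and epsilon extend it on the sliding clamp PCNA. Resting satellite cells lie outside the cell cycle and enter it after muscle injury, and many replication genes are known to be transcribed most in cells that prepare for or go through S phase.

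Each value given is the log2 signal of the gene's brightest probe minus the 75th percentile of its array, so a value of 0 is the level of that percentile. Differences are injured minus basal on this scale, with the standard error of the limma fit. Probe levels of different genes are not compared.

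After injury, most of the replication machinery was at a higher level. Of the 48 genes, 47 passed the filter on dim probes, and 41 of these were higher in injured samples at an adjusted p under 0.05, where 35.3% of the 13773 genes tested were higher. Gins3, a subunit of the GINS complex, was the 1 gene that was lower, where 24.8% of all genes tested were lower and 60.1% were called in either direction. The 5 genes that were not called were Mcm8, Orc3, Orc4, Orc5 and Prim2. Orc1 was not tested. For 40 of the 41 higher genes every injured array was above every basal array, a pattern that 33.9% of all genes tested showed, and the groups of Rfc4 overlapped. The difference was 2 or more, which is a fold change of at least 4, for 26 of the 41, and 5.68% of all genes tested were higher by that much. These 26 include genes with dim basal signals. With only genes above background on all 8 arrays kept, 17 members were higher by 2 or more, and 3.94% of all genes kept were. With normexp background correction, whose offset of 50 compresses dim signals, and quantile normalization, 10 of the 47 were higher by 2 or more (1.33% of all genes), the median difference over the 47 was 1.25 in place of 2.10, and 16 of the 41 differences shrank by over 1.5 times. These are called the normexp values where they stand beside a gene. The median difference over the 47 genes was 2.10, with a range from -0.55 to 4.33, and the median over all genes tested was 0.17. A larger share of cells that carry a transcript and more of it per cell cannot be told apart in these bulk samples. Of the 47 genes, 35 were above background on all 8 arrays, and 9 passed the filter only through the injured arrays, so that the filter favoured a positive difference for them. By the values of the authors' deposited table, 24.0% of the genes tested were higher and 5.63% lower, and 36 of the 47 replication genes were higher and 0 lower. With injured 1 as the only injured array, 13 of the 47 were higher and 0 lower by limma (34 and 0 at an unadjusted p under 0.05), 5.56% of all genes were higher, and the median difference was 2.15.

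**Figure D1:**
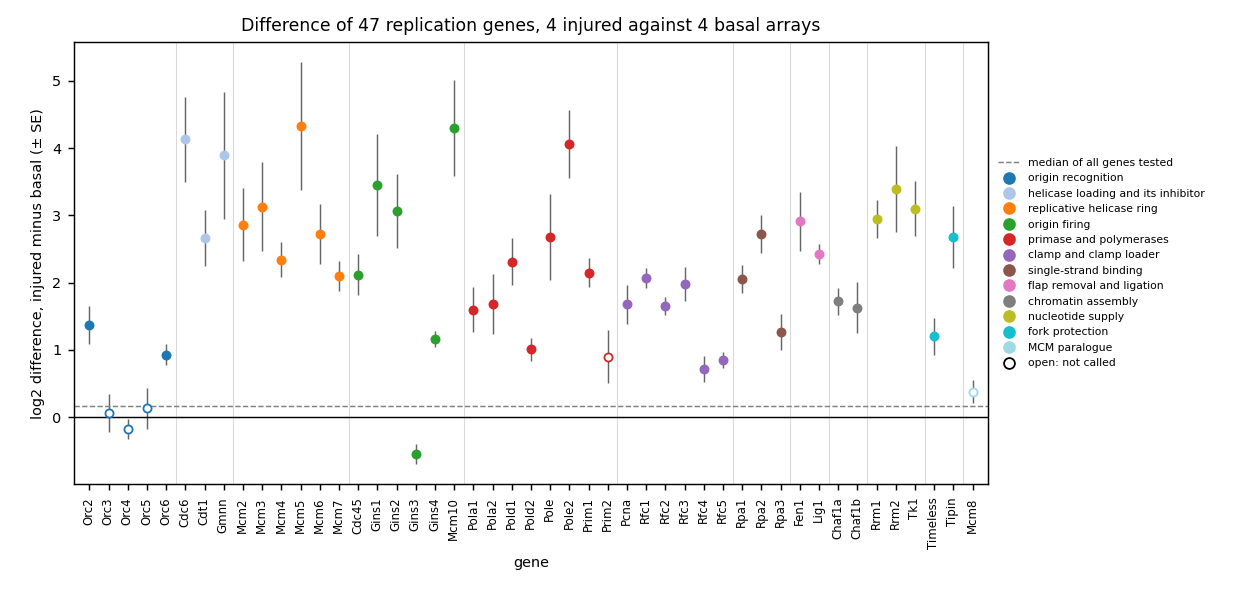
Injured minus basal difference (log2, vertical axis) of the 47 tested replication genes, grouped by role and coloured by it. Bars are standard errors of the limma fit with 4 arrays per group, open symbols are genes that were not called and the dashed line is the median of all genes tested (0.17). The origin recognition genes lie between -0.18 and 1.37, and the helicase ring between 2.10 and 4.33.

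The promoters of these genes were searched for letters of the kind bound by E2F, the transcription factor family known for driving genes of S phase entry. The windows, from RefSeq on the mouse build GRCm38.p6, run from 250 bases before to 50 after each gene's start, and the letters searched on both strands were TTTCCCGC, TTTCGCGC, TTTGCCGC and TTTGGCGC. Matches can overlap each other, since some of these strings share letters with another read on the opposite strand. Of the 39 members with a promoter in the table, 15 held at least 1 match, or 38.5%, and 2.6% of 27025 genes did. Among promoters rather than genes, the shares were 31.9% of 47 and 2.26% of 32851. Of these 15, 9 had a match that lay wholly upstream of the start, among them Pola1 and Rfc3, which were called higher and are not printed. In the others the matches lay at or past the start. The sequences printed here show matches upstream of the start in the licensing factor Cdc6 and 3 subunits of the helicase ring (Mcm5, Mcm6, Mcm7), all called higher, and in genes that did not rise or were too dim to test (Orc1, Orc3, Gins3). Each is read 5′ to 3′ on the strand of the gene, and the capitals mark the match:
Cdc6, chr11:98907993-98908040, plus strand: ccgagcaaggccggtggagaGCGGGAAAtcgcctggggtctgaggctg
Mcm5, chr8:75109336-75109387, plus strand: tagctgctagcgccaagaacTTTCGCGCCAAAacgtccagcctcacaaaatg
Mcm6, chr1:128359784-128359835, minus strand: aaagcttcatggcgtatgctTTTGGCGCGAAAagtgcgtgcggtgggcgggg
Mcm7, chr5:138172021-138172068, minus strand: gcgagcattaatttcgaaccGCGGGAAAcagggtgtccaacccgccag
Orc1, chr4:108579407-108579453, plus strand: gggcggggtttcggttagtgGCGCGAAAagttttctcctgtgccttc
Orc3, chr4:34614956-34615003, minus strand: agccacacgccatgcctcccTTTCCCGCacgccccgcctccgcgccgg
Gins3, chr8:95633498-95633545, plus strand: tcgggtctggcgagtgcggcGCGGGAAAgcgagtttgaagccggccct

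In Mcm5 and Mcm6 the capitals hold 2 overlapping matches. Mcm6 had a further match, not printed, that began 47 bases before the start. The first matched base lay 153 bases before the start in Mcm5, 110 in Mcm6, 165 in Mcm7, 138 in Cdc6, 27 in Orc1, and 41 in both Orc3 and Gins3. Mcm7 had a further match, not printed, at or past this start, and another promoter of Mcm7 had none. A match was present in 11 of the 33 higher genes that had a promoter in the table and in 4 of the 6 others. The median difference was 2.37 over the 14 tested genes with a match and 1.70 over the 24 without. The CCAAT box, bound by NF-Y, had its letters CCAAT in 25 of the 39 members (64.1%) and in 41.1% of all genes. The cell cycle homology region, searched as TTTGAA or TTCGAA, was found in 7 of the 39 (17.9%) and in 21.7% of all genes. These are matches of letters in a short window, and binding was not measured.

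**Figure D2:**
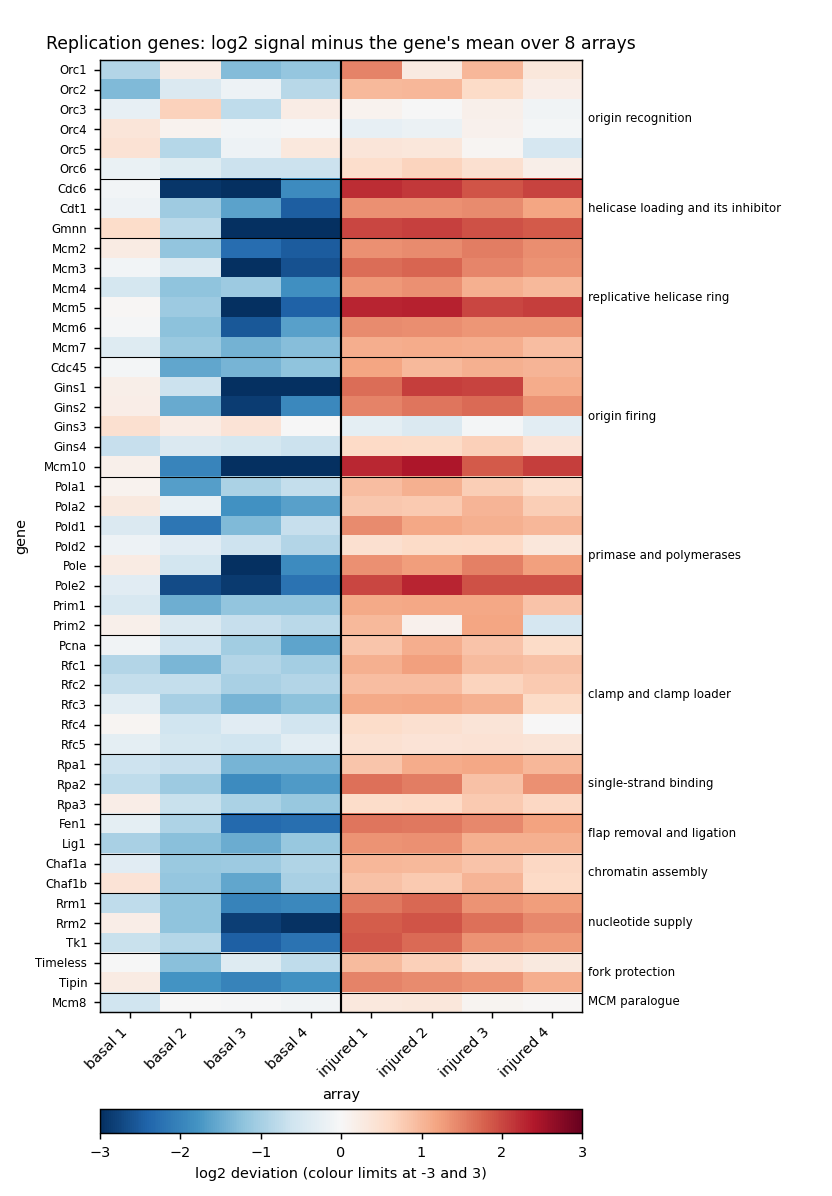
Deviation of each of the 48 replication genes (rows, grouped by role, with the untested Orc1 included) from its own mean over the 8 arrays (columns, 4 basal and 4 injured), on the log2 scale with colours limited to -3 and 3. The injured columns are alike, and basal 1 is nearer to the injured arrays than the other 3 basal arrays are.

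Of the 5 tested subunits of the origin recognition complex, which marks the origins for loading, 2 rose and 3 were not called. The median difference over the 5 was 0.13, and it was 1.01 in the authors' deposited table, where Orc3 differed by 0.89, Orc4 by 1.04, Orc5 by 0.98 and Orc6 by 2.06. Orc2 was at -2.84, -1.96, -1.67 and -2.34 on the basal arrays and at -0.55, -0.51, -0.94 and -1.33 on the injured arrays, a rise of 1.37 ± 0.28 (adjusted p = 0.00325) with a normexp value of 0.59. Orc6, the smallest subunit, went from 1.21, 1.06, 0.76 and 0.76 to 1.94, 2.09, 1.90 and 1.58, a rise of 0.93 ± 0.16 (adjusted p = 0.00137). For both, all injured arrays lay above all basal arrays. Orc3 was at -0.36, 0.57, -0.88 and 0.10 on the basal arrays and at -0.02, -0.13, 0.04 and -0.23 on the injured arrays, with overlapping groups and a difference of 0.06 ± 0.28 (adjusted p = 0.871). Orc4 differed by -0.18 ± 0.15 (adjusted p = 0.317) and Orc5 by 0.13 ± 0.31 (adjusted p = 0.745), and their groups overlapped too. Orc1, the subunit whose level is known to change through the cell cycle, was above background on 0 basal arrays and on 1 injured array. Its signal was -4.85, -3.75, -5.27 and -5.14 on the basal arrays and -2.50, -3.71, -2.99 and -3.63 on the injured arrays, and no fold is given.

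The 3 genes of origin licensing were called higher. Cdc6 and Gmnn passed the filter only through the injured arrays, so the sizes of their differences rest on dim basal signals, and the median over the 3 genes was 3.89, or 1.88 with the normexp values. Cdc6, the ATPase that brings the helicase ring to the origin, was at -1.57, -4.42, -4.88 and -3.38 on the basal arrays and at 0.73, 0.62, 0.39 and 0.54 on the injured arrays. Only basal 1 was above background, and the injured arrays all lay above it, with a fitted difference of 4.13 ± 0.63 (adjusted p = 0.000643) and a normexp value of 1.65. This probe lies at chr11:98782986-98783045 on the build mm9, on which all probe positions are given. Cdt1, which delivers the ring together with Cdc6, was at 1.76, 0.84, 0.30 and -0.57 on the basal arrays and at 3.28, 3.29, 3.32 and 3.09 on the injured arrays, a rise of 2.66 ± 0.42 (adjusted p = 0.000832). Its groups did not overlap. Gmnn, the inhibitor that holds Cdt1 so that origins are not licensed again, rose alongside it. Its basal values were -0.10, -1.44, -3.70 and -5.11, of which 2 were above background, and its injured values were 1.36, 1.41, 1.26 and 1.19. The fitted difference was 3.89 ± 0.95 (adjusted p = 0.007), the normexp value was 1.88, and the groups did not overlap.

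All 6 subunits of the helicase ring rose, with a median difference of 2.79, and no injured array overlapped a basal array for any of them. Mcm5, which forms with Mcm2 the gate through which the ring opens, was dim on part of the basal arrays. Its probe at chr8:77651350-77651410 was at 0.16, -0.95, -5.05 and -2.29 on the basal arrays, of which 3 were above background, and at 2.42, 2.45, 2.13 and 2.20 on the injured arrays. The fitted rise was 4.33 ± 0.95 (adjusted p = 0.00421), and it was 3.33 without basal 3, the array not above background, and 2.44 as the normexp value. Mcm2 was at 1.82, 0.39, -0.72 and -0.93 on the basal arrays and at 2.95, 3.00, 3.11 and 2.96 on the injured arrays, a rise of 2.86 ± 0.54 (adjusted p = 0.00191). For Mcm2 the injured arrays lay within a narrow band while the basal arrays were spread widely, with basal 1 the highest. Mcm3 went from 2.05, 1.72, -1.03 and -0.50 to 3.81, 3.87, 3.60 and 3.47, a rise of 3.13 ± 0.66 (adjusted p = 0.00353). Mcm6 went from 2.88, 1.68, 0.36 and 1.29 to 4.33, 4.31, 4.23 and 4.23, a rise of 2.72 ± 0.45 (adjusted p = 0.001). In both, basal 1 was again the basal array nearest to the injured ones.

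Mcm4 and Mcm7, which with Mcm6 form the part of the ring that unwinds DNA in isolation, rose from basal values that were less spread. Mcm4 was at 2.55, 1.86, 1.98 and 1.23 on the basal arrays and at 4.37, 4.45, 4.14 and 4.04 on the injured arrays, a rise of 2.34 ± 0.26 (adjusted p = 0.000139). Mcm7 was at 2.41, 1.69, 1.39 and 1.53 and then at 3.90, 3.92, 3.89 and 3.73, a rise of 2.10 ± 0.22 (adjusted p = 9.74e-05). The basal arrays of these 2 subunits were closer together (SD 0.54 and 0.45) than those of Mcm5 (SD 2.25) or Mcm3 (SD 1.55). Whether the differences of the subunits differ from each other was not tested. The related helicase Mcm8, which acts in repair by recombination and is no part of the ring, was not called. It was at -2.44, -1.85, -1.88 and -1.94 on the basal arrays and at -1.53, -1.49, -1.76 and -1.79 on the injured arrays, a difference of 0.38 ± 0.17 (adjusted p = 0.0747) without overlap between the groups.

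**Figure D3:**
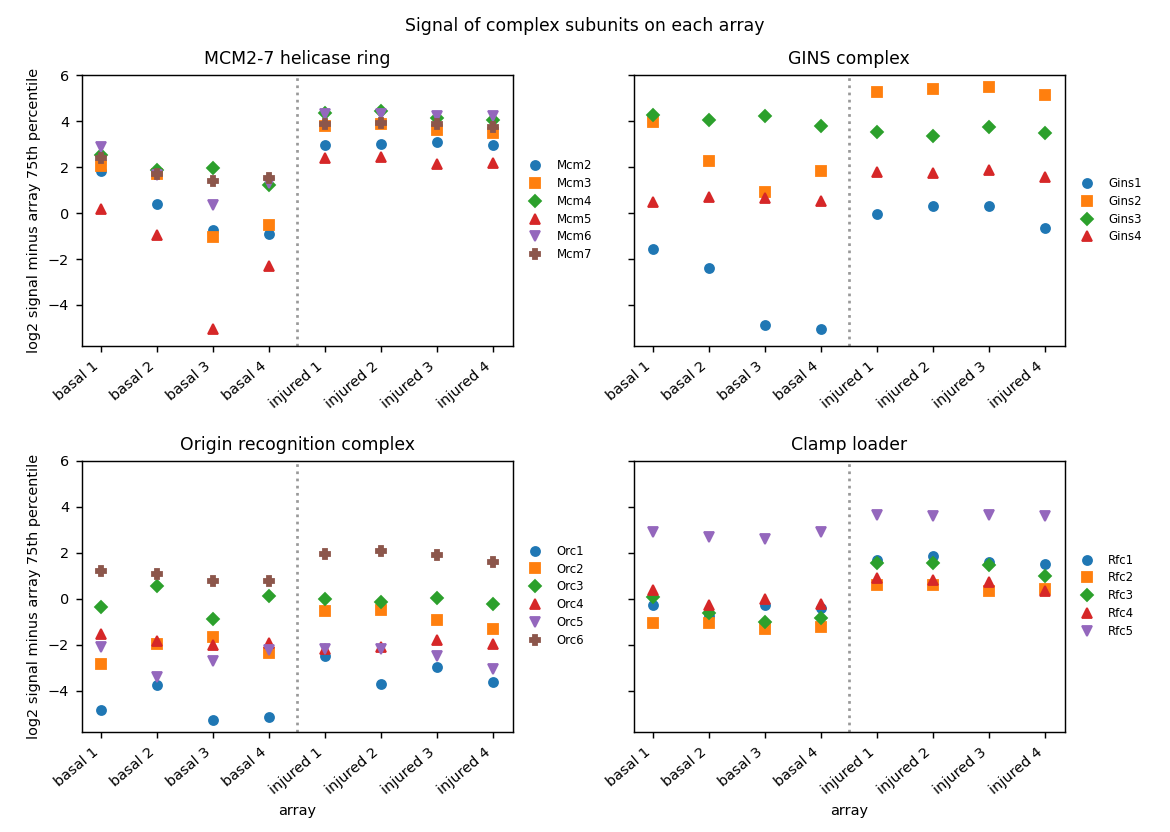
Signal relative to the array's 75th percentile (log2, vertical axis) of subunits of the replication complexes on each of the 4 basal and 4 injured arrays. Each symbol is 1 gene on 1 array. Each helicase ring subunit holds nearly the same value on the 4 injured arrays and varies over the basal arrays, and Gins3 is the only GINS subunit that is lower on the injured arrays.

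Origin firing factors rose except for 1 GINS subunit. Mcm10, which helps the loaded helicase to start unwinding, was at -1.53, -3.67, -5.13 and -4.98 on the basal arrays, of which 1 was above background, and at 0.57, 0.74, 0.16 and 0.40 on the injured arrays. The groups did not overlap, and the fitted difference, which rests on dim basal signals, was 4.30 ± 0.71 (adjusted p = 0.00103) with a normexp value of 1.65. Cdc45, which binds the ring to activate it, was at 0.89, -0.61, -0.44 and -0.24 on the basal arrays and at 2.14, 1.93, 2.02 and 1.99 on the injured arrays, a rise of 2.12 ± 0.30 (adjusted p = 0.000477).

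GINS is a complex of 4 different subunits that completes the active helicase, and its subunits did not move alike. Gins1 was at -1.58, -2.39, -4.87 and -5.05 on the basal arrays, of which 2 were above background, and at -0.06, 0.33, 0.29 and -0.63 on the injured arrays, a rise of 3.45 ± 0.76 (adjusted p = 0.00436) with a normexp value of 1.25. Gins2 was at 3.98, 2.27, 0.94 and 1.85 and then at 5.27, 5.39, 5.48 and 5.13, a rise of 3.06 ± 0.55 (adjusted p = 0.0015). Gins4 was at 0.47, 0.72, 0.64 and 0.52 and then at 1.77, 1.74, 1.89 and 1.57, a rise of 1.16 ± 0.12 (adjusted p = 0.000116). The groups of these 3 subunits did not overlap, and the basal arrays of Gins4 were close together (SD 0.12). Gins3 went the other way. It was at 4.28, 4.04, 4.22 and 3.79 on the basal arrays and at 3.51, 3.37, 3.75 and 3.49 on the injured arrays. It fell by 0.55 ± 0.15 (adjusted p = 0.0123), with every injured array below every basal array, a pattern found for 23.3% of all genes tested. The single Gins3 probe lies at chr8:98168040-98168099. The fall was 0.83 (adjusted p = 0.000991) after quantile normalization and in the authors' deposited table it was not called (-0.28 with an adjusted p of 0.473), without basal 1 and 2 (-0.47, adjusted p = 0.0511) or with injured 1 as the only injured array (-0.57, adjusted p = 0.230).

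Of 8 subunits of primase and the replicative polymerases, 7 rose, with a median difference of 1.92 over the 8. Prim1, the catalytic subunit of primase, was at -1.21, -2.20, -1.90 and -1.91 on the basal arrays and at 0.41, 0.44, 0.43 and 0.12 on the injured arrays, a rise of 2.15 ± 0.21 (adjusted p = 7.93e-05) with a normexp value of 1.17. Prim2, the large subunit of the same dimer, was at -1.01, -1.59, -1.85 and -1.96 and then at -0.17, -1.02, 0.04 and -1.66. Its groups overlapped, because injured 2 and 4 were low, and the difference was 0.90 ± 0.39 (adjusted p = 0.0735). Prim2 was called without basal 1 (1.10, adjusted p = 0.0442), without injured 4 (1.22, adjusted p = 0.0152), with the replicate number as a block (0.90, adjusted p = 0.039) and in the authors' deposited table (1.86, adjusted p = 0.0277). Pola1, the catalytic subunit of polymerase alpha, is encoded on the X chromosome. It was at -0.88, -2.65, -1.93 and -1.70 on the basal arrays and at -0.07, 0.08, -0.25 and -0.49 on the injured arrays. It rose by 1.6 ± 0.34 (adjusted p = 0.00344) with a normexp value of 0.74. Its partner Pola2 was at 1.26, 0.75, -0.83 and -0.65 and then at 1.79, 1.76, 2.00 and 1.72, a rise of 1.68 ± 0.45 (adjusted p = 0.0106) that was 2.55 without basal 1 and 2.

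Polymerase delta makes most of the lagging strand, and polymerase epsilon makes most of the leading strand. Those of their subunits that are members rose, while the delta subunit Pold4, given below with other replication genes, fell. Pold1, the catalytic subunit of polymerase delta, was at 0.85, -0.89, -0.05 and 0.60 on the basal arrays and at 2.70, 2.43, 2.34 and 2.27 on the injured arrays, a rise of 2.31 ± 0.35 (adjusted p = 0.000639). Its accessory subunit Pold2 was at 2.89, 2.71, 2.42 and 2.17 and then at 3.53, 3.62, 3.65 and 3.40, a rise of 1.01 ± 0.17 (adjusted p = 0.00127). Neither gene's groups overlapped. Pole, the catalytic subunit of polymerase epsilon, was at -0.85, -1.66, -4.27 and -3.0 on the basal arrays, of which 2 were above background, and at 0.28, 0.15, 0.41 and 0.12 on the injured arrays, a rise of 2.68 ± 0.64 (adjusted p = 0.00643) with a normexp value of 1.14. Pole2, its second subunit, was above background on 0 basal arrays and on all 4 injured arrays. Its signal was -2.70, -5.04, -5.23 and -4.57 on the basal arrays and -0.35, -0.08, -0.44 and -0.46 on the injured arrays. On the scale of these values the injured level was at least 6.61-fold higher, with an adjusted p of 0.000233 (normexp value 1.25 on the log2 scale). The bound sets the injured mean against the dimmest signal that was well above background on each basal array, or the probe's own where that was higher. It does not hold for the normexp values, which are smaller.

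The 6 genes of the sliding clamp and its loader were all called higher, with a median difference of 1.66. Pcna, the clamp that tethers polymerases to DNA, was at 1.39, 0.86, 0.44 and -0.09 on the basal arrays and at 2.32, 2.57, 2.35 and 2.07 on the injured arrays, a rise of 1.68 ± 0.29 (adjusted p = 0.00137). Replication factor C opens the clamp and closes it around DNA. Its large subunit Rfc1 was at -0.26, -0.74, -0.26 and -0.39 and then at 1.69, 1.86, 1.58 and 1.5, a rise of 2.07 ± 0.15 (adjusted p = 2.09e-05). Rfc2 was at -1.06, -1.06, -1.32 and -1.21 and then at 0.59, 0.60, 0.33 and 0.44, a rise of 1.65 ± 0.13 (adjusted p = 2.41e-05) with a normexp value of 1.02. For Rfc1 and Rfc2 the basal arrays were close together (SD 0.22 and 0.13), and the distance between the groups was many times that spread. Rfc3 was at 0.09, -0.60, -0.99 and -0.84 and then at 1.54, 1.57, 1.46 and 0.98, a rise of 1.98 ± 0.25 (adjusted p = 0.000269) with a normexp value of 1.31. Rfc5 was at 2.91, 2.68, 2.61 and 2.89 and then at 3.66, 3.60, 3.64 and 3.59, a rise of 0.85 ± 0.12 (adjusted p = 0.000425).

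Rfc4 gave a result that depended on the probe. Its brightest probe, at chr16:23114024-23114083, was at 0.40, -0.25, 0.00 and -0.23 on the basal arrays and at 0.90, 0.83, 0.72 and 0.36 on the injured arrays. Injured 4 lay below basal 1, and the rise was 0.72 ± 0.19 (adjusted p = 0.0103). The other probe, at chr16:23120982-23121041, was at -0.82, -1.82, -1.85 and -1.64 and then at 1.48, 1.16, 0.94 and 0.80, with no overlap and a difference of 2.62 ± 0.26 in the fit over probes (adjusted p = 8.6e-05). Chaf1b, a subunit of the assembly factor that puts new histones on replicated DNA, showed a gap of the same kind. Its brightest probe rose by 1.63 ± 0.38 (adjusted p = 0.00554), from 1.10, -0.46, -0.86 and -0.28 to 1.57, 1.47, 1.71 and 1.29. A neighbouring probe that shares part of its position, chr16:93906269-93906329 against chr16:93906219-93906278, differed by 0.35 ± 0.13 (adjusted p = 0.0424). With the mean of a gene's probes in place of the brightest, the difference was 1.67 for Rfc4 and 0.99 for Chaf1b.

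In 3 other genes a further probe passed the filter. The second probe of Mcm3 differed by 3.48. Those of Pole and Rpa1 were above background on 0 basal arrays and all 4 injured arrays, and were at least 4.14-fold and 4.96-fold higher, by the same rule as for Pole2. The second Cdc6 probe, further along the gene at chr11:98785169-98785228, was above background on injured 1 alone, at 0.88 there and at -3.0, -2.75 and -3.70 on injured 2, 3 and 4. The brightest Cdc6 probe did not set injured 1 apart in this way. With the mean of its probes, 1 of them dim, the difference of Gmnn was 2.37.

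Replication protein A, which covers the single strands at the fork, rose in all 3 subunits with a median difference of 2.05. The large subunit Rpa1 was at 0.14, 0.06, -0.65 and -0.63 on the basal arrays and at 1.58, 1.88, 1.92 and 1.75 on the injured arrays, a rise of 2.05 ± 0.21 (adjusted p = 0.000105). Rpa2 was at -2.11, -2.42, -3.23 and -3.03, of which 2 were above background, and then at 0.32, 0.19, -0.46 and 0.03, a rise of 2.72 ± 0.28 (adjusted p = 9.56e-05) with a normexp value of 1.18. Rpa3 was at 0.93, 0.08, -0.20 and -0.40 and then at 1.28, 1.34, 1.52 and 1.36, a rise of 1.27 ± 0.27 (adjusted p = 0.00352). The groups of all 3 subunits were separate, and basal 1 came nearest to the injured arrays for Rpa3.

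The enzymes that finish the lagging strand rose as well. Lig1, the ligase that seals Okazaki fragments, was at 3.34, 3.06, 2.83 and 3.17 on the basal arrays and at 5.65, 5.68, 5.37 and 5.37 on the injured arrays, a rise of 2.42 ± 0.15 (adjusted p = 1.01e-05), from a probe at chr7:13896609-13896667. Fen1, the nuclease that trims the flaps between fragments, was at 0.55, -0.09, -1.5 and -1.42 and then at 2.44, 2.43, 2.29 and 2.04, a rise of 2.91 ± 0.44 (adjusted p = 0.000653). Chaf1a, the large subunit of the chromatin assembly factor, was at 0.28, -0.50, -0.48 and -0.28 and then at 1.62, 1.6, 1.47 and 1.23, a rise of 1.72 ± 0.20 (adjusted p = 0.000159) with a normexp value of 1.13. In these 3 genes every injured array lay above every basal array. Neither chromatin assembly subunit was called in the authors' deposited table (Chaf1a at 1.18, adjusted p = 0.136, and Chaf1b at 0.23, adjusted p = 0.667).

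The genes of nucleotide supply rose with a median difference of 3.1. Rrm1 and Rrm2 form ribonucleotide reductase, which makes the deoxynucleotides. Rrm1 was at -0.31, -0.74, -1.54 and -1.48 on the basal arrays and at 2.04, 2.18, 1.80 and 1.70 on the injured arrays, a rise of 2.95 ± 0.28 (adjusted p = 7.09e-05). Rrm2, the subunit known to be made in S phase, was at 1.5, 0.10, -1.52 and -1.65 and then at 3.12, 3.18, 2.96 and 2.75, a rise of 3.39 ± 0.64 (adjusted p = 0.00194). Tk1, the cytosolic thymidine kinase that salvages thymidine, was at -0.02, -0.20, -1.80 and -1.56 and then at 2.52, 2.35, 2.00 and 1.94, a rise of 3.1 ± 0.41 (adjusted p = 0.000332). No groups overlapped, and Rrm2 had the widest basal spread of the 3 genes (SD 1.49).

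The fork protection pair Timeless and Tipin, which travels with the helicase and holds it to the polymerases, was dim in basal samples. Tipin was above background on basal 1 alone, at -1.01 there and at -3.03, -3.24 and -3.06 on the other basal arrays, and at 0.24, 0.18, 0.10 and -0.16 on the injured arrays, with a fitted difference of 2.68 ± 0.46 (adjusted p = 0.00122) that rests on dim basal signals and a normexp value of 1.17. Timeless was at -2.83, -4.08, -3.20 and -3.58 on the basal arrays, with 0 above background, and at -1.88, -2.11, -2.39 and -2.52 on the injured arrays, with 3 above it. By the same rule as for Pole2, and on the scale of these values only, its injured level was at least 1.80-fold higher. The adjusted p was 0.00514, and the normexp value was 0.31 on the log2 scale.

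The 4 basal arrays did not stand at 1 level for these genes. The signal of basal 1 was a median of 36.6% of the injured mean over the 41 higher genes, and that of basal 2, 3 and 4 was 19.1%, 17.9% and 18.7%. Over the 4866 genes of all kinds that were higher, the medians were 53.0%, 46.4%, 41.7% and 43.9%. Basal 1 was the highest basal array for 38 of the 41 genes, or 92.7%, and for 55.5% of all higher genes. Within the 41 genes the share on basal 1 ran from 19.4% to 81.0%, and that on basal 3 from 0.611% to 61.5%. Mki67 was also highest on basal 1 among the basal arrays, at 1.33 there and at 0.13, -1.0 and 0.50 on the other basal arrays. The median SD over the 41 genes was 0.68 between basal arrays and 0.17 between injured arrays, and over all higher genes it was 0.35 and 0.16. All 41 genes remained higher in each fit that left out 1 array, and the median difference over the 47 genes was 2.37 without basal 1 and 2. Injured 4 was the lowest injured array for 32 of the 41 genes, and it was the lowest for 52.2% of all higher genes.

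**Figure D4:**
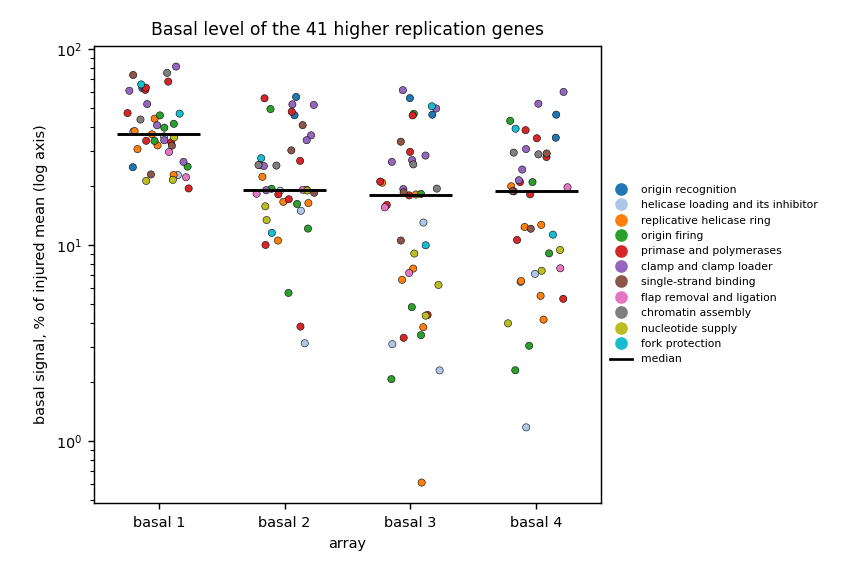
Signal of each basal array as a percent of the injured mean (vertical axis, logarithmic) for the 41 higher genes, coloured by role, with the median of each array as a line. The median is 36.6% on basal 1 and between 17.9% and 19.1% on the other basal arrays.

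Markers of other cells differed between the basal arrays. Of 12 endothelial markers on the array, 8 were above background on at least 3 basal arrays and 6 on at least 3 injured arrays. Their summed level, as multiples of the array's 75th percentile, was 57.9, 44.8, 28.3 and 23.4 on basal 1 to 4 and 10.1 to 12.5 on the injured arrays. Kdr made up 13.2% to 83.7% of this sum. Without Kdr it was 50.3, 38.1, 21.5 and 17.2 on basal 1 to 4 and 1.73 to 2.5 on the injured arrays. Pecam1, which encodes CD31, was at 3.20 and 2.87 on basal 1 and 2, at -2.20 and -3.22 on basal 3 and 4 and at -3.11 to -1.82 on the injured arrays. Ptprb, Cdh5 and Emcn were above background on 2 basal arrays and on 0 injured arrays, while Kdr was at 2.63 to 2.93 on the basal and 3.02 to 3.32 on the injured arrays. Of 9 tested, 1 was higher (Kdr) and 2 lower. Tek fell by 4.69 ± 0.29 (adjusted p = 9.79e-06). It was at 3.5, 3.13, 4.33 and 3.97 on basal 1 to 4, and so was higher on basal 3 and 4. Cldn5 fell by 1.16 ± 0.39 (adjusted p = 0.0304), from 0.28, -0.56, -1.58 and -1.18 on basal 1 to 4. Taking deviations from the mean of each gene, the medians of basal 1 to 4 stood at -0.06, -1.15, -2.42 and -2.13 for the helicase ring and at -0.67, -1.19, -2.45 and -2.21 for nucleotide supply, so that basal 2 lay above basal 3 and 4 there. It did so too for origin licensing, origin firing, the clamp and its loader, replication protein A, and flap removal and ligation. Other roles differed. Basal 2, 3 and 4 stood at -1.52, -1.18 and -1.29 for fork protection and at -0.35, -0.15 and -0.02 for origin recognition. They stood at -1.13, -1.33 and -0.94 for chromatin assembly. For primase and polymerases they stood at -1.02, -1.25 and -1.03, so that basal 2 lay above basal 3 and was nearly level with basal 4. The part of endothelial RNA in the replication values was not tested. Of 16 immune markers, 9 and 10 were above background on at least 3 arrays of the basal and of the injured group. Of 11 tested, 3 were higher and 1 lower, where 35.3% of all genes tested were higher and 24.8% lower. Laptm5, of lysosomes in blood cells, rose by 3.97 ± 0.66 (adjusted p = 0.00106) from -1.68 on basal 1 and -5.25 to -3.28 on the others. Tyrobp, an adaptor of myeloid receptors, rose by 1.99 ± 0.60 (adjusted p = 0.0185), and it too was highest on basal 1 (-1.01) among the basal arrays. Its groups overlapped, with injured 4 at -1.18. The T cell gene Cd3e rose by 0.37 ± 0.13 (adjusted p = 0.0355). The 1 that fell was Csf1r, a receptor of macrophages, by 0.30 ± 0.11 (adjusted p = 0.0403). It was at 5.45 to 5.6 on the basal and 5.15 to 5.3 on the injured arrays. For 23.3% of all genes tested every injured array was likewise below every basal array. The macrophage marker Adgre1 differed by -0.05 ± 0.20 (adjusted p = 0.844) and Ptprc, which encodes CD45, by -0.18 ± 0.37 (adjusted p = 0.698), and Lyz2, C1qa and Aif1 were each above background on 0 basal arrays and 1 injured array. The summed immune level was 476 to 544 in basal and 498 to 589 in injured samples. Itgam, which encodes CD11b, a marker the cells were sorted as negative for, made up 89.6% to 92.3% of this sum. It was at 8.74 to 8.95 on the basal and 8.83 to 9.09 on the injured arrays. Without Itgam the sum was 48.1 to 52.4 and 42.9 to 45.2. The part of immune RNA was not tested either.

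Markers of mural and connective tissue cells were lower after injury. Of 10 pericyte and smooth muscle markers tested, 7 fell, where 24.8% of all genes tested did. Rgs5, Pdgfrb, Kcnj8 and Abcc9 were above background on 0 injured arrays. The summed level of the 10 was 1220 to 1400 in basal and 936 to 1070 in injured samples, mostly from Mcam (88.7% to 97.9%), and without Mcam it was 98.9 to 158 and 20.7 to 34.1. Of 6 fibro-adipogenic markers tested, 5 fell, beside the same 24.8% of all genes. The summed levels of this list were 60.6 to 92.2 and 7.44 to 10.6. Ly6a, which encodes the sort marker Sca1, was not tested. It was at 1.34, 0.07, -3.3 and -3.49 on basal 1 to 4 and at -3.2 to -1.73 on the injured arrays. Muscle fibre markers summed to 7.04 to 12.6 and 17.9 to 44.1, and erythroid markers to 0.529 to 46.9 and 2.36 to 4.38. The part of these cells in the replication values was not tested.

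Other genes with roles in replication were set beside the 48. Of 40 such genes, 36 were tested, 29 rose, 2 fell and 5 were not called, with a median difference of 1.48. Over all genes tested, 35.3% rose, 24.8% fell and the median was 0.17. The largest rises were those of Asf1b, a histone chaperone (3.59 ± 0.70, adjusted p = 0.00243), and Dna2, a nuclease that cuts long flaps (3.30 ± 0.62, adjusted p = 0.00185). Next came Top2a, the topoisomerase of dividing cells (3.22 ± 0.50, adjusted p = 0.000763), and Dbf4, the activator of the kinase that fires origins (3.06 ± 0.88, adjusted p = 0.0156). Dna2 was above background on 1 basal array, and Top2a and Dbf4 on 2. Pold4, the smallest subunit of polymerase delta, fell by 1.0 ± 0.12 (adjusted p = 0.000206), from 1.07, 1.21, 1.32 and 1.10 to 0.05, 0.12, 0.27 and 0.28. Top2b, the topoisomerase that cells use outside division, fell by 0.34 ± 0.12 (adjusted p = 0.0433). In both genes every injured array was below every basal array, a pattern found for 23.3% of all genes tested. Tyms, the thymidylate synthase, was not called, with a difference of 1.05 ± 0.46 (adjusted p = 0.0758), and neither was Rrm2b, the reductase subunit used outside S phase (0.68 ± 0.40, adjusted p = 0.173).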

How the data were processed

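Spot intensity in the deposited scanner files comes from Agilent Feature Extraction, version 10.7.3.1 by the file headers. The authors also deposited normalized log2 values, called the authors' table here, and how these were made is not given in the sources used, beyond the name limma in the submitters' processing notes. The table served as an alternative only: its columns correlated with the signal of their own array at r = 0.625 to 0.929 across probes, and the own array was the best match for 6 of 8 columns.

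From the log2 processed signal of non-control spots, the array's 75th percentile (a signal of 104 to 132) was subtracted. Uneven and outlier spots were left out and spots of 1 probe averaged. Probes were named through RefSeq by accession (26300 probes), current symbol (2044) or synonym (355), or by the array's own name (833), and 26149 had none. A gene is its probe with the highest mean over 8 arrays. The test took genes with that probe well above background on 3 or more of the 4 arrays in 1 or both groups. Groups came from the sample labels. limma 3.58.1 in R 4.3.3 (with data.table, version 1.17.8, and jsonlite, version 2.0.0) compared 4 injured with 4 basal arrays, two-sided, with 6 residual and 2.55 prior degrees of freedom and Benjamini-Hochberg adjustment over 13773 genes at a threshold of 0.05. The fit was tested on simulated data.

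The 48 genes and all lists were chosen with earlier results of these data known, so no list was tested. Any of the 48 could be named. Of the 40 other replication genes, those named are up to 4 called genes with the largest rise and up to 4 with the largest fall. Tyms and Rrm2b were named after their values were seen. A protein table was not used here. Alternatives were other scalings, background corrections (normexp, offset 50) and filters, the authors' table, the mean of probes, the replicate number as a block, and arrays left out. A slide block could not be run, since each slide holds 1 group. Same-numbered samples did not deviate together (correlations -0.00267 to 0.0943), so they were not treated as pairs.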

Additional observations from a re-analysis of the deposited data

Results flagged for a closer look

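Of 96 sets of 4 arrays checked, which are the 2 groups for each of 48 genes, 4 had 1 array far from the others, and chance sets about 1 in 20 apart. Mcm7 was at 3.73 on injured 4 and at 3.89 to 3.92 on the other injured arrays. Prim1 was at 0.12 on injured 4 and at 0.41 to 0.44 on the others. Mcm8 was at -2.44 on basal 1 and at -1.94 to -1.85 on the others, the reverse of the order that most replication genes showed there. Tipin was at -1.01 on basal 1, the only basal array where it was above background, and at -3.24 to -3.03 on the others.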

How the results depend on the processing

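The count of 41 higher genes was 36 to 42 under other scalings, background corrections and probe rules, in the authors' deposited table and without basal 1 and 2, 42 of 48 with no filter on dim probes, and 30 of 35 with genes above background on all arrays. With injured 1 as the only injured array, assumed to vary like the basal ones, it was 13, with 0 lower. Leaving out 1 array at a time gave 41 to 42 higher, 1 lower and a median difference of 1.97 to 2.32. The median was 1.25 with normexp and quantile normalization, 1.27 with normexp and the 75th percentile, and 2.43 in the authors' table. The count of lower genes was 0 in the authors' table (0 at an unadjusted p under 0.05) and 0 without basal 1 and 2 (1 at an unadjusted p under 0.05). With the replicate number as a block, 42 were higher (Prim2 was added), 1 was lower and the median was 2.10. The sign turned for Orc3 without basal 1 (-0.01) and basal 3 (-0.19), in a range of -0.19 to 0.29 with 1 array left out. It turned for Orc4 in the authors' table (1.04), and for Orc5 without basal 1 and 2 (-0.02) and without basal 2 (-0.14, in a range of -0.14 to 0.32). None of these 3 genes was called in the main comparison, and the cause was not tested. Mcm8 was called after quantile normalization (0.49, adjusted p = 0.0296). In the authors' table Mcm4 (2.52, adjusted p = 0.0538), Orc2 (1.01, adjusted p = 0.0869), Rfc4 (0.82, adjusted p = 0.0796) and Timeless (1.01, adjusted p = 0.0547) were not called. By over 1.5 times, differences in the authors' table were larger for Orc6 (2.06), Pcna (2.73), Gins4 (2.46), Pola1 (2.43) and Rfc5 (1.85) and smaller for Gins1 (2.17), Pole2 (2.60) and Chaf1b (0.23). The median over all genes was 0.168 here, 0.47 in the authors' table and 0.064 with normexp and quantile normalization. Dim basal signals limit the size of the largest differences.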
